A study of Mus musculus with 6 samples.

Results

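The uptake, storage and export of iron were followed through 10 genes in B cells of the mouse lung: Trf, Tfrc, Slc11a2 and Slc11a1 on the side of supply and uptake, Fth1 and Ftl1 for storage, Slc40a1 and Cp for export, and Aco1 and Ireb2 as sensors. They are 10 of the 21774 genes in the authors' deposited mRNA table, picked by name and not by their values, and each gene is represented by its transcript with the highest mean over the 6 libraries. All 10 were in the table and all 10 passed the filter on low values, a mean of at least 1. The severe asthma group held 3 libraries from WT mice given LPS/HDM: the mice received lipopolysaccharide (LPS, 10 µg) together with house dust mite extract (HDM, 25 µg) in a volume of 35 µl, daily from day 0 to day 2, and then HDM alone (25 µg) daily for 8 days, from day 7 to day 14. The control group held 3 libraries from WT mice that received only saline buffer (PBS) by the same route, into the trachea. Strain, age, and whether a library pooled several mice are not given in the sources used here. In both groups the cells came from dissociated lung and were picked out with magnetic beads against B220, a form of the surface protein CD45 that B cells carry, so each library holds what the beads retained and not B cells alone. The question of the study is how expression in pulmonary B cells of asthmatic mice compares with that in control mice.

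Cells take up iron mainly as transferrin, which binds the transferrin receptor and is carried into endosomes, where the iron is freed and pumped into the cytosol. Iron that is not used is stored inside the ferritin shell of heavy and light chains, and ferroportin is the known route by which iron leaves a cell. When iron is short, the iron regulatory proteins bind hairpins in the untranslated regions of messenger RNAs, where they block translation of ferritin and ferroportin and protect the transferrin receptor message from decay. Macrophages hold much ferritin, since they recycle iron and withhold it from microbes during inflammation, and dividing lymphocytes carry much transferrin receptor.

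The libraries held 16498219 to 18054903 reads over the mRNA genes, with reads for 15614 to 16193 genes. Values below are the authors' library-size-adjusted read counts, called adjusted reads here, and fold changes are differences of mean log2(value + 1), severe asthma minus control. The labelled cell type was checked against its markers: all 8 genes of the B cell list, among them Ms4a1, Cd79a and Pax5, were detected in every library. They summed to 187932 to 205254 adjusted reads in severe asthma libraries and 130559 to 187937 in control libraries. The sum includes Ptprc, the gene of CD45, which is not particular to B cells (means of 30014 in severe asthma and 26247 in control libraries). Markers of other cells were present too and differed between the groups: 14 macrophage markers summed to 107406 to 217301 in severe asthma and 13220 to 32104 in control libraries, while 8 endothelial markers summed to 5297 to 8255 against 15874 to 43743. Control library 1 stood apart with the highest sums of endothelial, epithelial and fibroblast markers. Nothing in the labels says whether each library is a mouse of its own, so a p-value here covers the spread among these libraries alone, and that spread may be technical.

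Of the genes, 4 carry an exact match to the hairpin that the iron regulatory proteins bind, searched in the transcript annotation of GENCODE M21 (GRCm38, the assembly also named mm10) as a C, any 5 bases, the loop CAGTGN, and 5 bases that pair with the first 5, G–T pairs included. The sites are shown because they are what ties storage, export and uptake to 1 switch. Capitals mark the 6-base loop, and each site is 29 bases long, printed 5′ to 3′ on the gene's strand.
Fth1, 5′ UTR, exon 1, chr19:9982732-9982760, plus strand: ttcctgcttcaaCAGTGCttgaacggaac
Ftl1, 5′ UTR, exon 1, chr7:45459779-45459807, minus strand: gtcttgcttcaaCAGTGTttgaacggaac
Slc40a1, 5′ UTR, exon 1, chr1:45925465-45925493, minus strand: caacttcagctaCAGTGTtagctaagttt
Tfrc, 3′ UTR, exon 19, site 1, chr16:32631219-32631247, plus strand: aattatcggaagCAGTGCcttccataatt
Tfrc, 3′ UTR, exon 19, site 2, chr16:32631598-32631626, plus strand: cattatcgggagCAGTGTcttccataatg
Tfrc, 3′ UTR, exon 19, site 3, chr16:32631663-32631691, plus strand: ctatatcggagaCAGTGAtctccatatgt
Tfrc, 3′ UTR, exon 19, site 4, chr16:32631710-32631738, plus strand: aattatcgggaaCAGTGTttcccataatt
The sites of Fth1 and Ftl1 were identical at 26 of 29 bases, and pairs of the 4 Tfrc sites at 18 to 25 of 29. Among 21901 protein-coding genes, 31 (0.142%) held such a match in a 5′ UTR and 129 (0.589%) in a 3′ UTR. The search found none in the annotated transcripts matched to the other 6 genes, which says only that these letters are not there. A hairpin with an unpaired base within the 5 pairs would be missed, so those genes are not shown to lack one. A match is a description of the sequence, and RNA levels do not show whether a protein bound it.

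Of the 10 genes, 3 rose in severe asthma (Slc11a1, Ftl1 and Fth1), 1 fell (Cp) and 6 did not pass the test (limma, adjusted p under 0.05 over all 15759 genes tested). Across all genes tested, 20.7% rose, 14.4% fell and 35.1% were called in either direction, so 4 of 10 called is near the background and is no result about the set. The median log2 fold change was 0.16 over the 10 genes and 0.06 over all genes tested. Severe asthma and control libraries did not overlap for 6 of the 10 genes, 4 higher and 2 lower in severe asthma, where 53.3% of all genes tested did not overlap (31.6% higher and 21.6% lower). With the reads scaled by their total alone, 1920 genes rose and 3111 fell in place of 3262 and 2263, and the median of all genes was -0.08. The 4 calls above held under that scaling. Without control library 1, Slc11a1 was no longer called and Tfrc was, which left 2 genes that rose and 2 that fell.

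**Figure D1:**
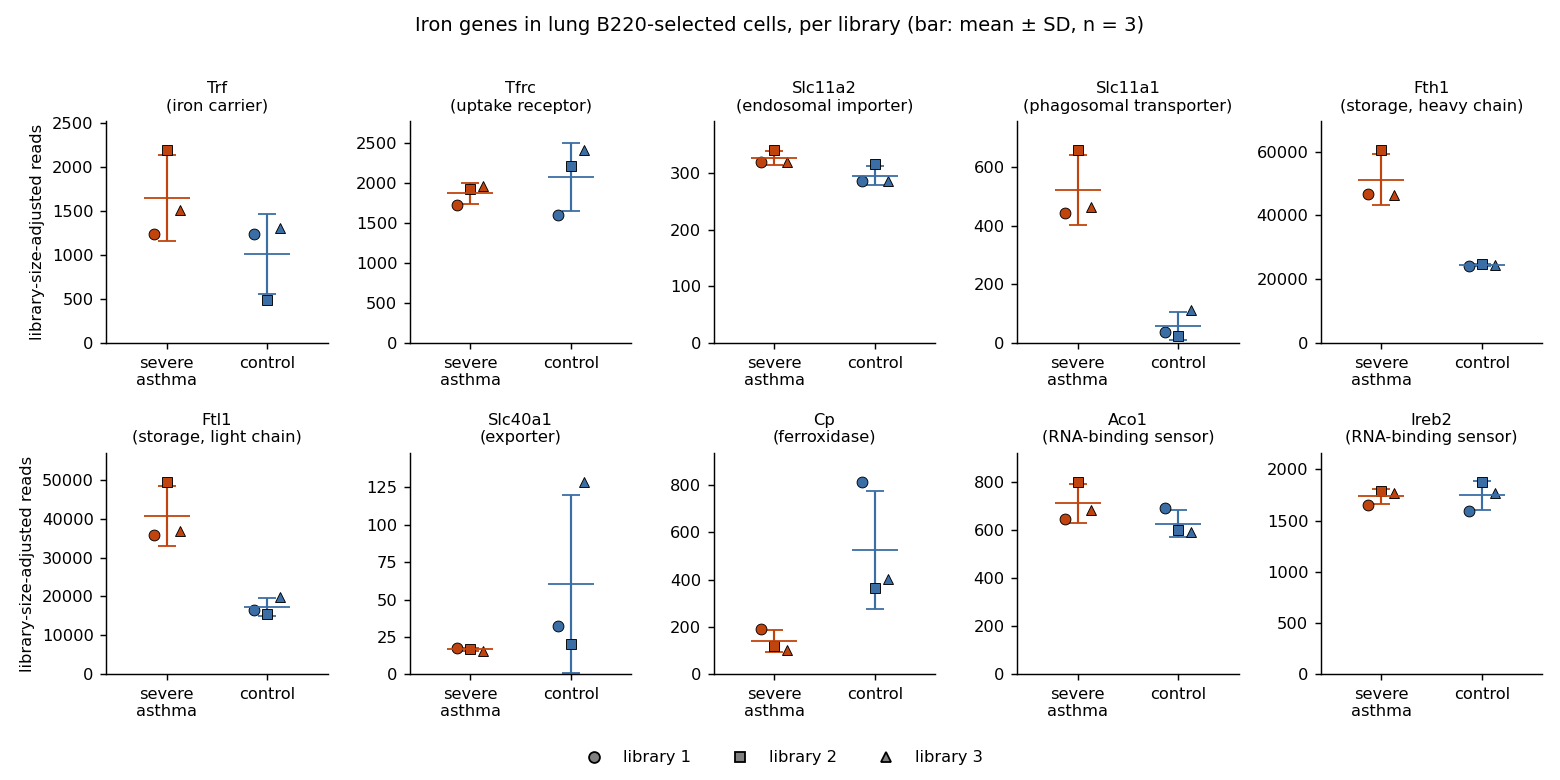
Adjusted reads of each of the 10 genes in every library, with severe asthma left of control in each panel, library numbers as marker shapes, and the mean ± SD (n = 3) as bars; the y axes start at 0 and differ between panels. Fth1 lies at 46515 to 60412 in severe asthma libraries, above 24094 to 24796 in control libraries, and Slc40a1 is high in control library 3 alone.

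**Figure D2:**
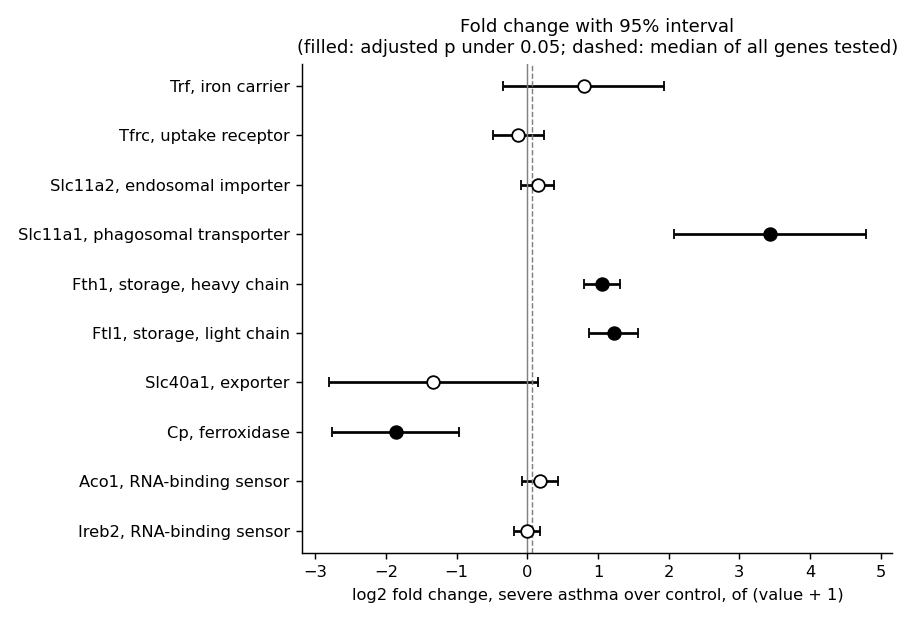
Log2 fold change of each gene, severe asthma over control, with its 95% interval from limma; filled points have an adjusted p under 0.05, and the dashed line is the median of all genes tested. The intervals of Slc11a1, Fth1 and Ftl1 lie above 0 and that of Cp below 0.

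Trf, the iron carrier transferrin (chr9:103208876-103230286, minus strand), did not pass the test. It had 1242, 2189 and 1514 adjusted reads in severe asthma libraries 1 to 3, against 1241, 482 and 1307 in control libraries 1 to 3. Severe asthma library 2 was high and control library 2 was low, and the groups overlapped. The log2 fold change was 0.80 (95% interval -0.34 to 1.94, adjusted p = 0.227), and 0.33 without control library 2 (adjusted p = 0.337).

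Tfrc, the receptor that takes transferrin into the cell (chr16:32608896-32632794, plus strand), had 1719.7, 1919 and 1965 adjusted reads in severe asthma libraries, against 1597, 2214 and 2405 in control libraries. Control library 1 was the lowest of all 6 and the other 2 control libraries were the highest, so the severe asthma values lay inside the control range. The log2 fold change was -0.13 (95% interval -0.49 to 0.23, adjusted p = 0.539), an interval that leaves out changes as large as those of the ferritin genes. Without control library 1 it was -0.31 and passed the test (adjusted p = 0.0132).

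Slc11a2 encodes DMT1, the transporter that moves iron out of the endosome (chr15:100387898-100424209, minus strand, a region shared with the annotated gene Gm5475). Its adjusted reads were 319.7, 340.1 and 319.5 in severe asthma libraries, against 285, 315 and 285 in control libraries. The groups did not overlap, but the gap was small and did not pass the test (log2 fold change 0.15, 95% interval -0.08 to 0.38, adjusted p = 0.287). The fold change was 0.00 with the reads scaled by their total alone. All 11 transcripts listed for the gene lay between 0.09 and 0.23.

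Slc11a1, or NRAMP1, is the metal transporter of the phagosome membrane in macrophages and neutrophils (chr1:74375014-74386057, plus strand), and it had the largest change of the 10 genes. It had 445, 659 and 464 adjusted reads in severe asthma libraries, against 36.3, 25.0 and 112 in control libraries. Every severe asthma library was well above every control library, and control library 3 was the highest of its group. Slc11a1 rose with a log2 fold change of 3.43 (SE 0.554, 95% interval 2.07 to 4.79, adjusted p = 0.00809), which is 9.05-fold between the group means. Without control library 1 the value was 3.25 and the call was lost (adjusted p = 0.0526).

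The macrophage markers were higher in severe asthma, as were Slc11a1 and the other genes that rose. Their sum was 107406, 217301 and 143323 adjusted reads in severe asthma libraries, against 26327, 13220 and 32104 in control libraries. Of the 14 markers 8 rose and 0 fell, their median log2 fold change was 2.44, and none was at 0 in all libraries. By the mean over all 6 libraries the 2 most abundant were Lyz2, a lysozyme (67971 ± 21866 adjusted reads in severe asthma and 11872 ± 5425 in control libraries, SD, n = 3 each), and Chil3, a chitinase-like protein (44230 ± 28365 and 2989 ± 2163), although Apoe, the lipid carrier apolipoprotein E, was above Chil3 in severe asthma library 1 and in all 3 control libraries. Slc11a1, Fth1, Ftl1 and Trf had their highest severe asthma value in library 2, as the macrophage sum did. So did Slc11a2, Aco1 and Ireb2, while Tfrc was highest in library 3 and Slc40a1 and Cp in library 1. Trf, Slc11a2, Aco1 and Ireb2 did not pass the test. Slc11a1, Ftl1 and Trf had their highest control value in library 3, again as that sum did. So did Tfrc and Slc40a1, whose log2 fold changes were negative. Fth1 had its highest control value in library 2, where that sum was lowest. The part of macrophages in the results was not tested. In bulk samples, more cells of a type and more RNA per cell cannot be told apart, nor can fewer cells and less RNA.

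The 2 ferritin genes were the most abundant of the set and rose together. Fth1, the heavy chain that oxidizes iron as it enters the shell (chr19:9980600-9985111, plus strand), had 46770.4, 60412 and 46515 adjusted reads in severe asthma libraries, against 24094, 24796 and 24481 in control libraries. Severe asthma library 2 was the highest, and the 3 control libraries lay within a factor of 1.03 of each other. The macrophage sums of the control libraries spread over a factor of 2.43, and the part of macrophages in the Fth1 values was not tested. Fth1 rose with a log2 fold change of 1.06 (SE 0.112, 95% interval 0.80 to 1.31, adjusted p = 0.000976), which is 2.09-fold between the group means.

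Ftl1, the light chain that supports iron core formation (chr7:45457944-45459886, minus strand), had 35816 adjusted reads in severe asthma library 1, 49442 in library 2 and 36688 in library 3. The control libraries had 16634, 15510.4 and 19898, all below the lowest severe asthma library. Ftl1 rose with a log2 fold change of 1.22 (SE 0.148, 95% interval 0.88 to 1.56, adjusted p = 0.00174), or 2.34-fold. Both chains together took 0.462%, 0.596% and 0.464% of the reads in severe asthma libraries, against 0.251%, 0.242% and 0.274% in control libraries. The calls of Fth1 and Ftl1 held when any 1 library was left out. The reference names 14 other ferritin genes and pseudogenes, 7 of them in the deposited tables, and reads shared with such copies make the ferritin levels uncertain.

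Because the ferritin genes moved together, the 250 bases before their annotated starts are shown, from RefSeq (GRCm38.p6), printed 5′ to 3′ on the gene's strand. For Fth1 the start nearest the hairpin is used. Capitals mark matches to CCAAT or GGGCGG on either strand, so that a match on the other strand reads ATTGG or CCGCCC.
Fth1, chr19:9982396-9982645, plus strand: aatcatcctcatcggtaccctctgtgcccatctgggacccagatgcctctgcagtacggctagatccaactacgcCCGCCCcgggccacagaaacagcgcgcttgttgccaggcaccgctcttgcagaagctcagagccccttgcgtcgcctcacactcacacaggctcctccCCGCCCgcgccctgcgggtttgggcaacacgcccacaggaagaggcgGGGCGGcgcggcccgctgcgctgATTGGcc
Ftl1, chr7:45459887-45460136, minus strand: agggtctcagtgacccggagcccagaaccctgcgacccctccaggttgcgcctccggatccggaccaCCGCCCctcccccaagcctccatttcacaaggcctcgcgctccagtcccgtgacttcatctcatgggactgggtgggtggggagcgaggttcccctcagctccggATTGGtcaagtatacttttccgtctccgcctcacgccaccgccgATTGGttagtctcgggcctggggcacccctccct
The motif GGGCGG was found at 3 places in the Fth1 window and at 1 place in the Ftl1 window. The motif CCAAT was found at 1 place in the Fth1 window and at 2 places in the Ftl1 window, and no matches overlapped. Both are common, since of 32851 promoter windows of the same length 32.7% held the first and 33.8% the second. The motif TATAAA, held by 12.4% of the windows, was not found in either window printed here. Likewise not found were the motif CACGTG, held by 6.02% of the windows, and the motif GAGGAAG, held by 10.6%, or the spaced motif TGACNNNGC, held by 10.2%. None of these 6 motifs, each searched on both strands, was found in the window of Slc11a1. RefSeq windows were matched for 7 of the 10 genes.

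On the export side, Cp fell and Slc40a1 did not pass the test. Slc40a1 encodes ferroportin, the iron exporter of the cell surface (chr1:45908070-45926532, minus strand), and had the lowest mean of the 10 over all 6 libraries, although Slc11a1 was lower in the mean of the control libraries. It had 17.8, 17.1 and 15.9 adjusted reads in severe asthma libraries, against 32.4, 20.01 and 129 in control libraries. The severe asthma libraries were all low and alike, the groups did not overlap, and control library 3 was 6.43 times control library 2.

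The log2 fold change of Slc40a1 was -1.33 (95% interval -2.80 to 0.14, adjusted p = 0.139). It moved to -0.57 without control library 3 (adjusted p = 0.341) and to -1.88 without control library 2 (adjusted p = 0.0427). Of the tests on the recovered reads, DESeq2 called it (log2 fold change -1.92, adjusted p = 0.0362), while edgeR with TMM (adjusted p = 0.0820) or RLE factors (0.0803) and limma-voom (0.207) did not, and the authors' deposited table of changed genes lists it at -1.87 on the log2 scale (q-value 0.0291). Marco, a scavenger receptor of alveolar macrophages, was likewise high in control library 3 (338 adjusted reads, against 55.0 and 40.01 in the other control libraries and 78.2, 52.3 and 35.7 in severe asthma libraries). Cd163, the macrophage receptor for haptoglobin bound to hemoglobin, was high there too (58.6, against 10.8 and 12.003 in the other control libraries), at 7.36, 9.62 and 14.9 in severe asthma libraries. Marco and Cd163 were named after their values were seen. Marco belongs to the 14 macrophage markers, of which 8 rose and 0 fell in severe asthma, unlike Slc40a1. The part of macrophages in the Slc40a1 values was not tested.

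Cp, ceruloplasmin, the copper ferroxidase that oxidizes exported iron so that transferrin can bind it (chr3:19956933-20009750, plus strand, overlapping the annotated gene Hps3), fell. It had 192, 122 and 104 adjusted reads in severe asthma libraries, against 814, 363 and 403 in control libraries. Library 1 was the highest of each group, and the lowest control library was well above the highest severe asthma library. The log2 fold change was -1.86 (SE 0.370, 95% interval -2.76 to -0.97, adjusted p = 0.0132), and control was 3.78-fold higher between the group means.

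All 6 listed transcripts of Cp lay between -2.38 and -1.84 in log2 fold change. The call was lost without severe asthma library 2 (adjusted p = 0.0601) or library 3 (adjusted p = 0.0550), and without control library 1 the value was -1.50 (adjusted p = 0.00504). Markers of lung structural cells moved with Cp. All 8 endothelial markers fell, with sums of 8255, 5297 and 5400.3 adjusted reads in severe asthma libraries, against 43743, 15874 and 19467 in control libraries. Of the 8 epithelial markers 6 fell, with sums of 4415 to 9574 in severe asthma and 22591 to 64564 in control libraries. Of the 8 fibroblast markers 4 fell, with sums of 1133 to 2569 in severe asthma and 4690.03 to 16182 in control libraries. None of these markers was at 0 in all libraries, library 1 was the highest of its group in each of the 3 sums, and their part in the Cp result was not tested.

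**Figure D3:**
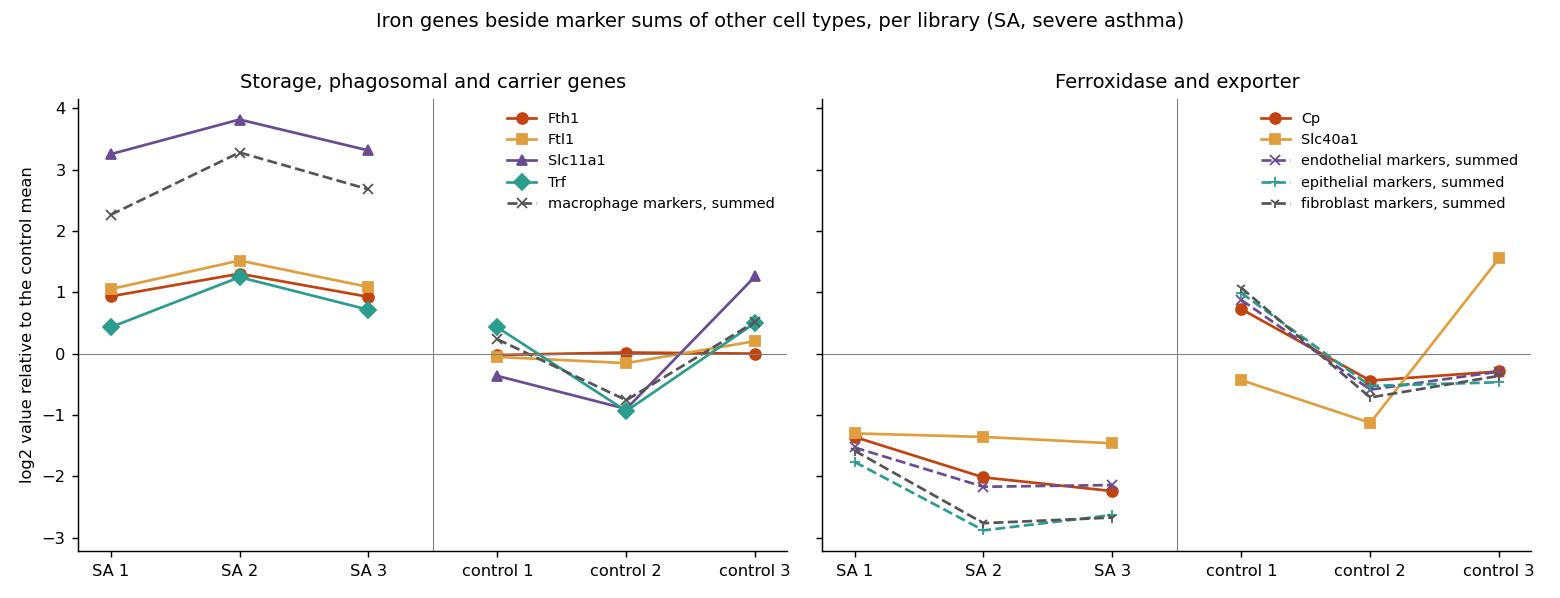
Log2 value of 6 iron genes (solid) and of summed markers of other cell types (dashed) in each library, relative to the control mean; lines only join the points of 1 gene or list, since the libraries of a group have no order. Slc11a1 lies above the macrophage sum in severe asthma, and Fth1 is level across control libraries. Cp and the sums of structural markers are lower in severe asthma, and Slc40a1 stands out in control library 3.

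The sensors did not pass the test. Aco1, the cytosolic aconitase that becomes iron regulatory protein 1 when it loses its iron-sulfur cluster (chr4:40143265-40199009, plus strand), had 648, 801 and 683 adjusted reads in severe asthma libraries, against 690.2, 600.1 and 589.8 in control libraries. The groups overlapped, and the log2 fold change was 0.18 (95% interval -0.07 to 0.43, adjusted p = 0.230). Ireb2, iron regulatory protein 2, which is degraded when iron is plentiful (chr9:54862658-54912534, plus strand), had 1655, 1788 and 1766 adjusted reads in severe asthma libraries, against 1593, 1878 and 1766 in control libraries. Its values were nearly the same in both groups, with a log2 fold change of -0.01 (95% interval -0.19 to 0.18, adjusted p = 0.967).

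Ratios of 2 genes within a library do not depend on how libraries are scaled, and 4 were compared. They are ratios of RNA levels in mixed samples, so the 2 genes of a ratio may be read from different cells. Tfrc over Fth1, uptake over storage, was 0.0368, 0.0318 and 0.0422 in severe asthma libraries, against 0.0663, 0.0893 and 0.0983 in control libraries. The groups did not overlap, and the log2 difference was -1.19 (two-sided exact permutation p = 0.1, the smallest that 3 against 3 libraries allow, 0.2 after Benjamini-Hochberg adjustment over the 4 ratios). Slc40a1 over Slc11a2, export over import, was 0.0555, 0.0502 and 0.0497 in severe asthma libraries, against 0.114, 0.0635 and 0.451 in control libraries. It differed by -1.52 on the log2 scale, without overlap (exact permutation p = 0.1, adjusted 0.2), and by -0.72 without control library 3 or -2.13 without control library 2.

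Fth1 over Ftl1, the balance of the 2 chains, was 1.31, 1.22 and 1.27 in severe asthma libraries, against 1.45, 1.599 and 1.23 in control libraries. The groups overlapped (log2 difference -0.16, exact permutation p = 0.3, adjusted 0.3). Aco1 over Ireb2 overlapped as well, at 0.391, 0.448 and 0.387 in severe asthma libraries and 0.433, 0.319 and 0.334 in control libraries (log2 difference 0.18, exact permutation p = 0.3, adjusted 0.3). With 3 libraries a group, none of these ratios could have passed a threshold of 0.05.

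**Figure D4:**
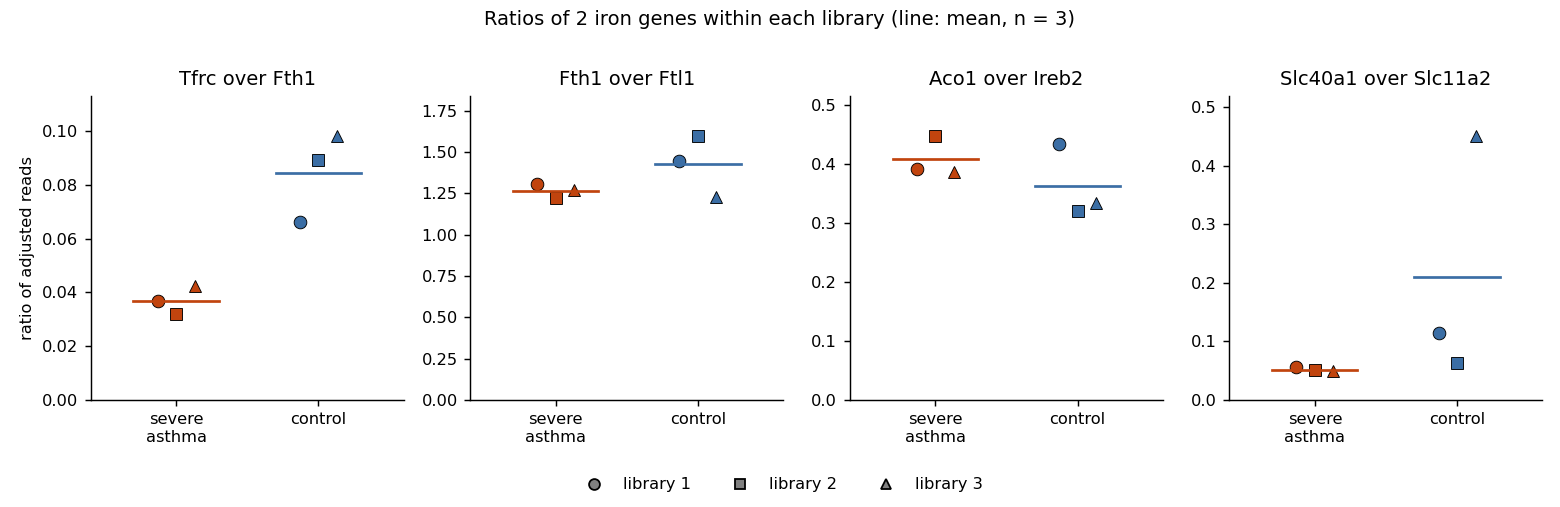
Ratio of adjusted reads of 2 genes within each library for the 4 pairs, severe asthma left of control, with the mean of 3 libraries as a line and y axes that start at 0. Tfrc over Fth1 is at or below 0.0422 in severe asthma libraries and at or above 0.0663 in control libraries, while Fth1 over Ftl1 and Aco1 over Ireb2 overlap.

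Per kilobase of transcript, levels can be set side by side between genes. Ferritin heavy and light chain led, with 55148 ± 8558 and 41992 ± 7880 adjusted reads per kilobase in severe asthma libraries, against 26326 ± 378 and 17921 ± 2354 in control libraries (SD, n = 3 each, for Fth1 and Ftl1 in that order). In severe asthma libraries the next were Trf (641 ± 190 in severe asthma and 393 ± 178 in control libraries), Tfrc (382 ± 26.6 and 424 ± 86.5) and Ireb2 (301 ± 12.4 and 303 ± 24.9). Below them lay Slc11a1 (219 ± 52.7 and 24.4 ± 19.8), Aco1 (185 ± 20.9 and 164 ± 14.4) and Slc11a2 (73.9 ± 2.68 and 66.8 ± 3.91). Cp (31.3 ± 12.1 and 115 ± 54.6) and Slc40a1 (5.01 ± 0.282 and 17.9 ± 17.7) came last. In control libraries the order below ferritin was Tfrc, Trf, Ireb2, Aco1, Cp, Slc11a2, Slc11a1 and Slc40a1. In control libraries Trf overlapped Tfrc and Ireb2, whereas every Tfrc value lay above every Ireb2 value. Cp overlapped Aco1 there, with 178 in control library 1, and Slc11a1 overlapped Slc40a1. In severe asthma libraries Slc11a1 overlapped Aco1. Ferritin message was thus more abundant per length than any other gene of the set in both groups. For Cp and Slc11a1 the length is that of another listed transcript than the one tested, since it could be matched to the annotation.

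The genes with the most similar pattern to Tfrc over the 6 libraries, among 10304 with a mean of at least 100, were Nub1 (Pearson r of log2 values 0.992), Smchd1 (0.986) and Cd86 (0.985). For Trf they were Fbxo28 (0.990), Cln8 (0.974) and Supt3 (0.973), and for Slc40a1, among 10305, Ube3c (0.965), Zbed6 (0.951) and Zbtb37 (0.946). The likeness is of shape and not of size: Ube3c had 1077.5, 1015 and 1150.2 adjusted reads in control libraries, a far narrower range than Slc40a1. With 6 points and this many candidates, these values are a description.

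Other genes of iron and heme handling, 58 in 5 lists, were read from the same fit, and 55 passed the filter. Of these 15 rose, 7 fell and 33 did not pass the test, shares near the 20.7% of all genes tested that rose and the 14.4% that fell, so nothing is read from them. The same shares of all genes stand behind the counts of each list below. The 55 had a median log2 fold change of 0.24, against 0.06 over all genes tested. The list of reductases, transporters and binding proteins had 13 genes tested of 14, with 1 that rose, 5 that fell, and a median of -0.76. Ltf, lactoferrin, an iron-binding protein of secretions and granules, fell by 3.46 on the log2 scale (138 ± 34.9 adjusted reads in severe asthma and 1552 ± 485 in control libraries, SD, n = 3 each, adjusted p = 0.000711). Steap2, a ferrireductase, had 8.28, 2.18 and 1.98 adjusted reads in severe asthma libraries, against 63.0, 26.01 and 56.2 in control libraries (log2 fold change -3.38, adjusted p = 0.00546). Heph, hephaestin, a membrane ferroxidase related to Cp, fell by 3.65 on the log2 scale (5.53 ± 7.73 and 64.5 ± 58.7, adjusted p = 0.0268). Heph lost its call without severe asthma library 2 (adjusted p = 0.103) or 3 (0.0976) or control library 3 (0.0579). The call was also lost without the filter on low values (0.111) and with limma-voom (0.0566).

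Steap1, another member of that reductase family, was listed at 0 in all 3 severe asthma libraries and at 1.95, 6.001 and 2.73 adjusted reads in control libraries, and is given no fold. Slc39a8, a zinc and iron importer, fell by 2.09 on the log2 scale (adjusted p = 0.0426). Snx3, a sorting protein of the transferrin receptor, was the 1 riser (log2 fold change 0.26, adjusted p = 0.0499). Slc39a8 and Snx3 were named after their values were seen, and the Snx3 call was lost in most alternatives. Steap2, Heph and Slc39a8 had their highest control value in library 1, as the structural markers did, and Ltf and Steap1 in library 2. Of the 10 neutrophil markers, 9 were tested, of which 1 rose and 1 fell, and the sums were 357 to 397 in severe asthma and 316 to 434 in control libraries; the part of neutrophils in the Ltf values was not tested.

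Iron chaperones and ferritin turnover had 5 genes tested of 6, of which 3 rose and 0 fell (median log2 fold change 0.42). Pcbp2 and Pcbp1, RNA-binding proteins that also hand iron to ferritin, rose by 0.43 (6834 ± 184 adjusted reads in severe asthma and 5076 ± 242 in control libraries, adjusted p = 0.00432) and by 0.42 (5702 ± 350.1 and 4258 ± 221, adjusted p = 0.00665). Ncoa4, the receptor that takes ferritin to the lysosome for breakdown, had 1261, 1619 and 1435 adjusted reads in severe asthma libraries, against 825, 807 and 1119 in control libraries. It rose by 0.66 (adjusted p = 0.0147), and the call was lost without severe asthma library 2 (0.0630) or 3 (0.0588) or control library 1 (0.0526). The call was also lost without the filter on low values (0.0824). Ncoa4 was highest in severe asthma library 2 and in control library 3, as the macrophage sum was.

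The hepcidin axis, which sets ferroportin in the body, had 7 genes tested of 8, with 0 that rose and 2 that fell (median -0.86). Bmp6, a growth factor that induces hepcidin in the liver, had 174, 54.6 and 64.5 adjusted reads in severe asthma libraries, against 2105, 690.2 and 834 in control libraries (log2 fold change -3.63, adjusted p = 0.0111). Neo1, neogenin, a receptor that binds hemojuvelin, fell by 1.90 (55.9 ± 15.9 and 236 ± 154, adjusted p = 0.0178), and its call was lost without severe asthma library 2 (0.0762) or 3 (0.0716). The Neo1 call was also lost without the filter on low values (0.0878) and with limma-voom (0.0618). Bmp6 and Neo1 were both highest in library 1 of each group, as the endothelial, epithelial and fibroblast sums were. The part of those cells in the Bmp6 and Neo1 values was not tested. Hamp, hepcidin itself, had 2.12, 4.25 and 3.97 adjusted reads in severe asthma libraries, against 0, 1.00 and 0.924 in control libraries, and did not pass the test (adjusted p = 0.0725).

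Of the 12 genes of heme uptake, breakdown and export, 4 rose and 0 fell (median 0.39). Blvrb, a biliverdin reductase, rose by 0.90 (1498 ± 78.2 adjusted reads in severe asthma and 809.9 ± 117 in control libraries, adjusted p = 0.00175). Hmox2, the constitutive heme oxygenase, rose by 0.46 (815 ± 20.2 and 594 ± 60.3, adjusted p = 0.00928). Blvra, the other biliverdin reductase, rose by 0.87 (273 ± 27.6 and 150.2 ± 32.7, adjusted p = 0.0107), and its call was lost without severe asthma library 2 (0.0583) or 3 (0.0545). The Blvra call was also lost without the filter on low values (0.0638).

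Flvcr1, a heme exporter, rose by 0.32 (332 ± 12.8 and 266 ± 13.7, adjusted p = 0.0409). The Flvcr1 call was lost with the replicate number as a block (adjusted p = 0.0668), with every count-based test and with all but 1 of the left-out libraries. That call was also lost without the filter on low values (0.0693) and with total reads alone (0.212). Hmox1, the inducible heme oxygenase, had 548, 645 and 392 adjusted reads in severe asthma libraries, against 146, 50.01 and 253 in control libraries. The groups did not overlap, and it missed the threshold (log2 fold change 2.06, adjusted p = 0.0511).

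Mitochondrial iron handling and heme synthesis had 18 genes, all tested, of which 7 rose and 0 fell (median 0.33, against 0.06 over all genes). Alas1, the first and limiting enzyme of heme synthesis outside the red cell line, had 981, 1335 and 1129 adjusted reads in severe asthma libraries, against 681, 533 and 639 in control libraries, and rose by 0.89 (adjusted p = 0.00357). Glrx5, a glutaredoxin of iron-sulfur cluster assembly, rose by 0.67 (460.0 ± 37.7 and 288 ± 9.98, adjusted p = 0.00325). Abcb8, a transporter of the mitochondrial inner membrane, rose by 0.65 (501 ± 26.3 and 319.7 ± 26.7, adjusted p = 0.00396). Also among those that rose were Hscb (0.70), Cpox (0.57) and Nfs1 (0.30). Of the 9 erythroid markers tested, which mark red cells and their precursors, 0 rose and 0 fell (limma), with 0 at an unadjusted p under 0.05, and their sums were 1215 to 5188 in severe asthma and 1619 to 7278 in control libraries.

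**Figure D5:**
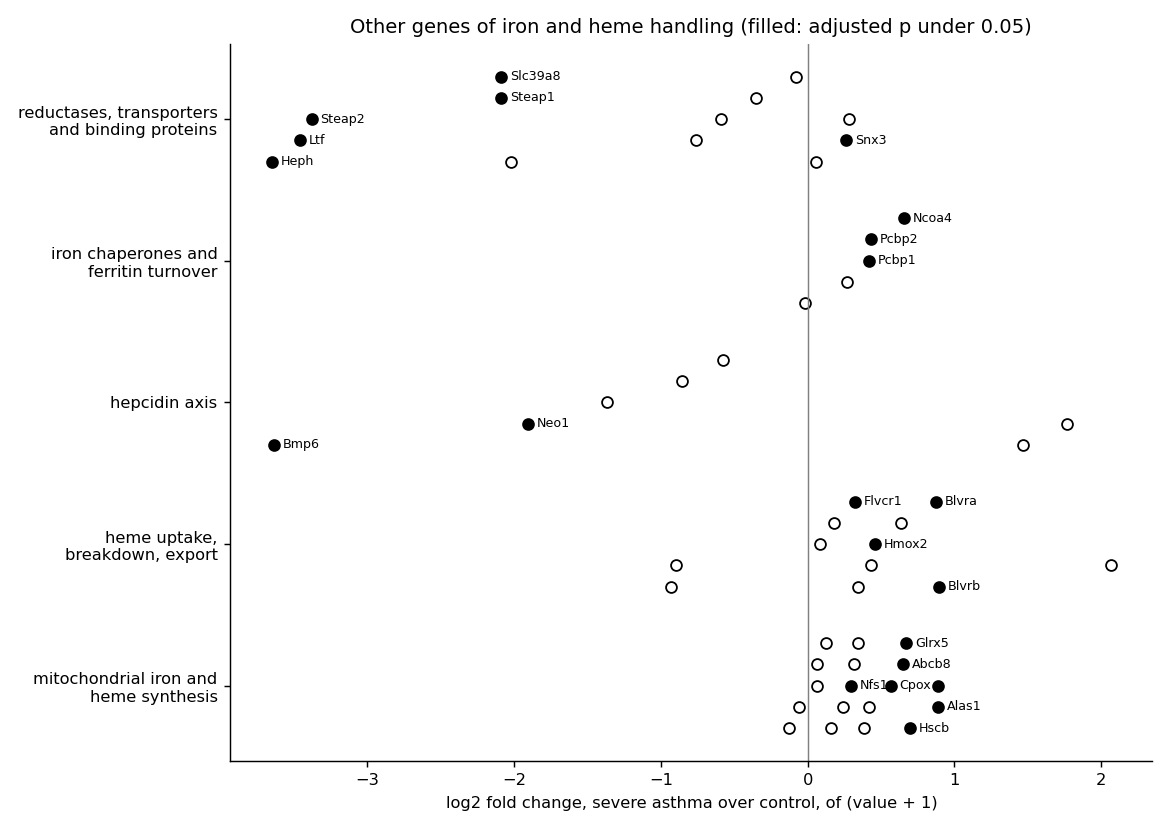
Log2 fold change, severe asthma over control, of the 55 tested genes of the 5 lists, 1 row of points per list; filled points have an adjusted p under 0.05, and those the text describes are named. The filled points of the chaperone, heme and mitochondrial lists lie above 0, and those of the hepcidin list below 0. Steap1 is at its fitted value although it is listed at 0 in severe asthma.

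The authors' deposited tables carry the same genes. The authors' deposited table of transcripts gives q-values of 2.65e-14 for Fth1, 3.92e-14 for Ftl1, 6.27e-10 for Slc11a1, 1.55e-06 for Cp and 0.0271 for Slc40a1, and 0.0745 to 1 for the other 5 genes. The authors' deposited table of 2977 changed genes lists 5 of the 10: Ftl1, Slc11a1, Fth1, Cp and Slc40a1. Over all genes with a biological process term, 2586 of 23174 were called by the authors. The 5 of 10 is not read as a result about the set. Of the 28 terms in the authors' deposited term tables whose name holds iron, ferr, heme or transferrin, 3 had a q-value under 0.05. In the authors' deposited term tables, iron ion transport held 10 called genes of 38 (q-value 0.0236), among them Slc11a1, Fth1, Cp and Slc40a1. Iron ion binding held 30 of 166 (authors' q-value 0.0398), with Ftl1 and Fth1. Heme binding held 30 of 157 (authors' q-value 0.0221), with none of the 10 genes. For these 2 terms, 2562 of 22727 genes with a molecular function term were called. Ferroptosis, the iron-dependent form of cell death, held 9 of 40 and had a q-value of 0.18 in the authors' deposited table. Over all genes of that pathway table, 1153 of 8980 were called.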

How the data were processed

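RNA was measured in 3 severe asthma and 3 control libraries of B220 bead-selected lung cells. Per the labels' protocols, libraries of polyadenylated RNA were built with a NEBNext Ultra kit; the use of strand in counting is not stated. The tools named in the submitters' processing notes are HISAT2 2.1.0, HTSeq 0.11.2 and bcl2fastq, with the build mm10, without roles. For 84748 mRNA transcripts the authors deposited a library-size-adjusted signal per library, with log2 fold changes, p-values and q-values of their own, per the file headers; the authors' test is not stated. Reads were recovered by inverting an edgeR quantile adjustment, and 99.9974% of 499202 values above 0 came out whole (tolerance 0.05 reads).

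A gene's values are those of its transcript with the largest mean. The test was limma 3.58.1 (R 4.3.3) with trend and robust empirical Bayes, two-sided, applied to log2(value + 1) of genes whose mean reached 1, adjusted by Benjamini-Hochberg across all genes, with a threshold of 0.05. This scale understates the change of low genes. Alternatives on the recovered reads were limma-voom, edgeR 4.0.16 (TMM and RLE factors) and DESeq2 1.42.0. The steps were tested on simulated data in which far fewer genes changed than were called here, so that test does not cover such a wide shift. Between deviations from the group means, r was 0.414, 0.128 and 0.140 for libraries with the same number. Across numbers it was 0.200 for severe asthma library 2 with control library 3, and 0.179 for severe asthma library 3 with control library 2. These values do not establish pairs, and the labels name none. Since each same-number r was above 0.1, the number was tried as a block, as an alternative. The members, the gene lists and the tests were chosen with earlier results of these data known. Some items are not reported here. Genes named from each list were up to 4 past the threshold with the smallest p; others are marked as chosen after their values were seen, as were Hamp, Hmox1, Marco, Cd163, Hscb, Cpox and Nfs1.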

Additional observations from a re-analysis of the deposited data

Results flagged for a closer look

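The deposited table of non-coding transcripts, which the comparisons do not use, lists 1 transcript of Fth1 there. It had 46416, 59196 and 46194 adjusted reads in severe asthma libraries, against 25352, 24460.0 and 24481 in control libraries, a log2 difference of 1.02. It was looked at again because it is a signal outside the mRNA table. Its values are close to those of the coding Fth1 transcript in every library, and reads that overlap both transcripts cannot be told apart in these tables. No member other than Fth1 is listed there.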

How the results depend on the processing

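Fth1 and Ftl1 were called under each of the 15 alternatives with a test, with log2 fold changes of 0.91 to 1.12 and 1.07 to 1.32 and adjusted p of at most 0.0241 and 0.0333. Leaving out 1 library gave 0.33 to 1.05 for Trf, -0.31 to -0.012 for Tfrc, -1.88 to -0.57 for Slc40a1, 2.99 to 4.05 for Slc11a1, -2.12 to -1.50 for Cp and -0.0697 to 0.0493 for Ireb2, whose sign turned without severe asthma library 1 (0.0290), control library 2 (0.0493) or control library 3 (0.00473). Without a filter on low values Cp stayed at -1.86 and lost its call (adjusted p = 0.0634), and 1312 genes rose and 387 fell, where more genes enter the adjustment. Steap2 (adjusted p = 0.0510), Steap1 (0.0523) and Hmox2 (0.0542) also lost their calls without that filter. The Steap1 call was lost too without severe asthma library 1 (0.0526), 2 (0.0711) or 3 (0.0711). The same held without control library 2 (0.0702) or 3 (0.0559). DESeq2 gave -1.92 for Slc40a1 and called it, which edgeR and limma-voom did not. With total reads alone 1920 genes rose. Leaving out 1 library gave 1573 to 3403 genes that rose and 730 to 2337 that fell, the lowest of both without severe asthma library 2 (1627 and 782 without library 3). The count tests on recovered reads called 2514 and 2481 (edgeR, TMM), 2365 and 2670 (edgeR, RLE) and 2479 and 2884 (DESeq2). With the replicate block 3528 rose and 2714 fell, and apart from Flvcr1 (0.0668) no call of a gene named by the rule was lost and no call of the 10 genes changed (Fth1 1.06, Cp -1.86).

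Of the lists, the 1 riser among reductases and transporters became 0 without the filter, with total reads alone, with limma-voom, with edgeR under TMM and RLE, with DESeq2, and without robust fitting (0 to 1 with 1 library left out). Its fallers became 1 without the filter and 3 with limma-voom (2 to 5 with 1 library left out). The fallers of the hepcidin axis became 1 without the filter and with limma-voom (1 to 2 with 1 library left out, and 0 to 1 rose). Heme genes that rose became 1 without the filter (2 to 5 with 1 library left out), and 1 fell with DESeq2 (0 to 1 with 1 library left out). The cause of these moves was not tested. Counting error limits the low genes: Slc40a1 had 16 to 17 reads in severe asthma and 20 to 139 in control libraries.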
